A study of Mus musculus with 6 samples.

Results

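The nuclear genes of respiratory complex I were followed in the ventricular myocardium of aged WT mice and of mice with a nonsense allele of the *Dst-b* isoform of dystonin, a cytoskeletal linker protein. The allele shortens the *Dst-b* product, and by qPCR the paper found *Dst-b* mRNA significantly reduced in mutant hearts and *Dst-a* mRNA unchanged. Summed over all isoforms *Dst* was at 423 to 473 CPM in WT and 414 to 457 CPM in mutant hearts, with overlap. This sum does not show the isoforms apart. The complex I genes were taken by name, as every listed gene whose symbol begins with Nduf except *Ndufa4l2*, which gave 41 of the 13003 genes listed. By symbol, 11 of them are named *Ndufs* or *Ndufv*, 26 are named *Ndufa*, *Ndufb* or *Ndufc*, and 4 are the assembly factors *Ndufaf1* to *Ndufaf4*. The rule uses no measured value. Libraries of poly-A RNA came from 3 WT mice, replicates 1, 3 and 4, and 3 *Dst-b* mutant mice, replicates 1, 2 and 3, with 1 library for each mouse, all aged 14 to 19 months. Mutant mice were homozygous for a nonsense allele in an exon that only *Dst-b* uses, which had been made by CRISPR/Cas9 editing of C57BL/6J zygotes and obtained from crosses of heterozygotes. No transgene or Cre was used. The study drew on 3 independent lines and on both sexes, and the line and the sex behind each library are not stated in the sources used here. The paper set aside *Xist*, *Tsix* and *Bmp10* for extreme outliers in 1 individual, and sex is not a term of the fits used here.

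Complex I is the entry point of the respiratory chain for electrons from NADH. Its matrix arm carries a flavin and a row of iron-sulfur clusters that lead the electrons to ubiquinone, and its membrane arm pumps protons with the energy released. A small catalytic core, shared with bacteria, is surrounded by accessory subunits that mammals need for assembly and stability, while assembly factors act on the growing complex and are absent from the finished enzyme. The membrane-embedded core subunits are encoded by mitochondrial DNA and were not analysed here, nor was *Ndufb1*. Heart muscle holds dense mitochondria and large amounts of the complex.

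Most complex I genes were measured slightly lower in *Dst-b* mutant hearts, and few differed by more than the spread between mice allowed the test to call. All 41 passed the filter on low counts, which asked for 1 CPM or more in 3 or more libraries. CPM is the tag count relative to the library's total, scaled by TMM. The test was the quasi-likelihood test of edgeR, with p adjusted by Benjamini-Hochberg over all 12955 genes tested, and a call needed p under 0.01 together with an adjusted value under 0.1. By this rule 3 of the 41 were called lower, *Ndufc1*, *Ndufs6* and *Ndufa6*, and 0 were called higher, against 1.84% of all genes called lower and 2.80% called higher. At an unadjusted p under 0.05 in the same edgeR test, 15 of the 41 were lower and 0 higher. Of all genes 1017 (7.85%) were lower at that limit and 1127 higher. The log2 fold change, mutant against WT, lay below 0 for 34 of the 41, against 50.0% of all genes, with a median of -0.10 against 0.00 over all genes. For 18 genes every mutant value was below every WT value, and for 0 every mutant value was above, where 10.5% and 11.4% of all genes did so. Genes of 1 complex are expressed together in the same 6 hearts, so these counts describe the group and are not a test of it.

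**Figure D1:**
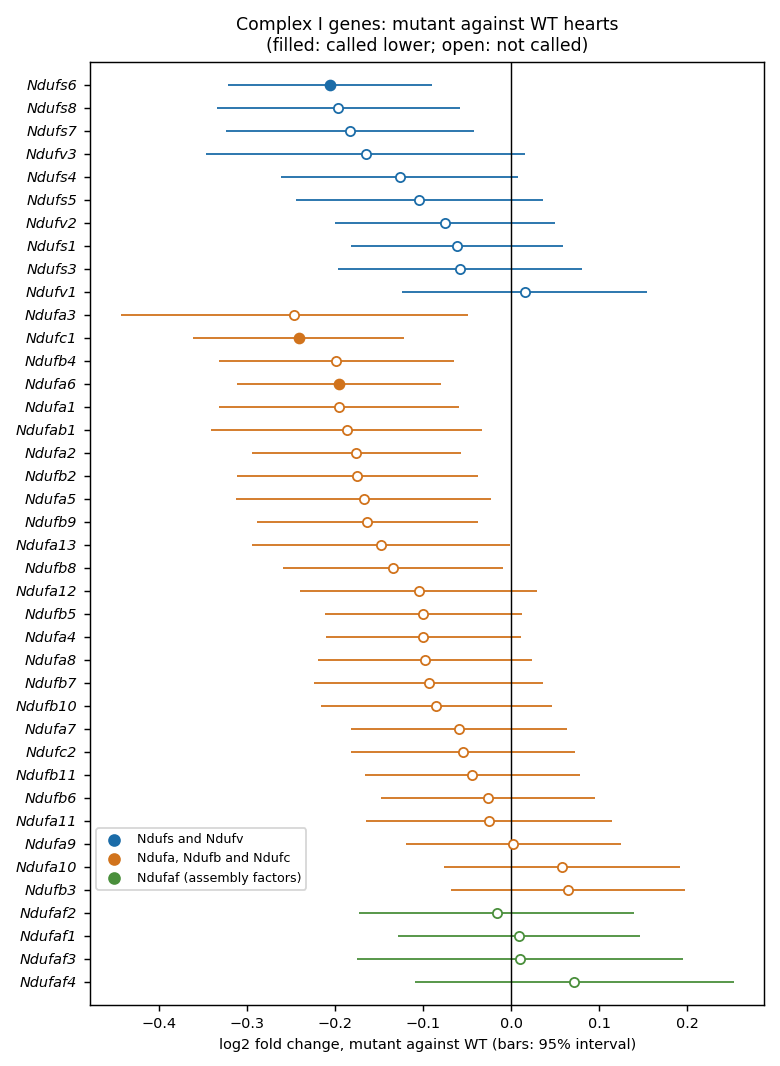
Log2 fold change, mutant against WT, for 40 of the 41 complex I genes, with its 95% interval from the edgeR fit (3 mice of each genotype). Filled points are the 3 genes called lower. Of the 40 points 33 lie below 0, while the 4 assembly factors lie between -0.02 and 0.07.

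*Ndufc1* encodes a small accessory subunit of the membrane arm. It lies on chromosome 3 from 51405479 to 51408955 of GRCm38, on the minus strand. In WT replicates 1, 3 and 4 its level was 479, 480 and 468 CPM, and in mutant replicates 1, 2 and 3 it was 387, 410 and 410 CPM. The groups were well apart, and the log2 fold change was -0.24 ± 0.05 (standard error; edgeR, adjusted p = 0.0502), 15.4% below WT. *Ndufs6* (chromosome 13 from 73319876 to 73328482, minus strand) encodes a zinc-binding accessory subunit of the matrix arm that is added late in assembly. Its level was 745, 785 and 752 CPM in WT hearts and 650, 662 and 668 CPM in mutant hearts, again with no overlap. The log2 fold change of *Ndufs6* was -0.21 ± 0.05 (standard error; edgeR, adjusted p = 0.0760). *Ndufa6* (chromosome 15 from 82350139 to 82354291, minus strand) encodes a matrix-arm subunit of the LYR family, which binds the mitochondrial acyl carrier protein. Its level was 544, 571 and 563 CPM in WT hearts and 484, 493 and 487 CPM in mutant hearts, the mutant values lying closer together than the WT values. The log2 fold change of *Ndufa6* was -0.20 ± 0.05 (standard error; edgeR, adjusted p = 0.0873).

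These 3 calls rested on few mice. Without WT replicate 1, without WT replicate 3 or without mutant replicate 1, 0 of the 41 genes were called by edgeR. *Ndufc1* alone was called without WT replicate 4 and without mutant replicate 2, and *Ndufc1* and *Ndufa3* were called without mutant replicate 3. Over these 6 fits the log2 fold change of *Ndufc1* ran from -0.26 to -0.21 and its adjusted p from 0.0676 to 0.232 (edgeR). Over all genes these fits called 33 to 208 lower, against 238 with all 6 libraries. With DESeq2 in place of edgeR 7 were called lower, *Ndufa1*, *Ndufa2*, *Ndufb4* and *Ndufs8* in addition to the same 3. DESeq2 called more genes in general, 448 of all genes lower against 238 by edgeR. With an adjusted p under 0.05 asked of edgeR, 0 of the 41 were called, and 94 of all genes were called lower. The exact test of edgeR, which called 317 of all genes lower, called *Ndufc1* alone, with adjusted p of 0.137 for *Ndufs6* and 0.169 for *Ndufa6*. With library totals in place of TMM *Ndufa6* was not called (adjusted p = 0.102 from edgeR). Scaling of the counts by exonic length, an alternative chosen after seeing the data, ended all 3 calls and brought the log2 fold changes of *Ndufc1*, *Ndufs6* and *Ndufa6* to -0.15, -0.13 and -0.12. Of the 3 called genes, *Ndufs6* shares 30 exonic bases with *Mrpl36* on the opposite strand, and whether strand was used in counting is not stated.

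**Figure D2:**
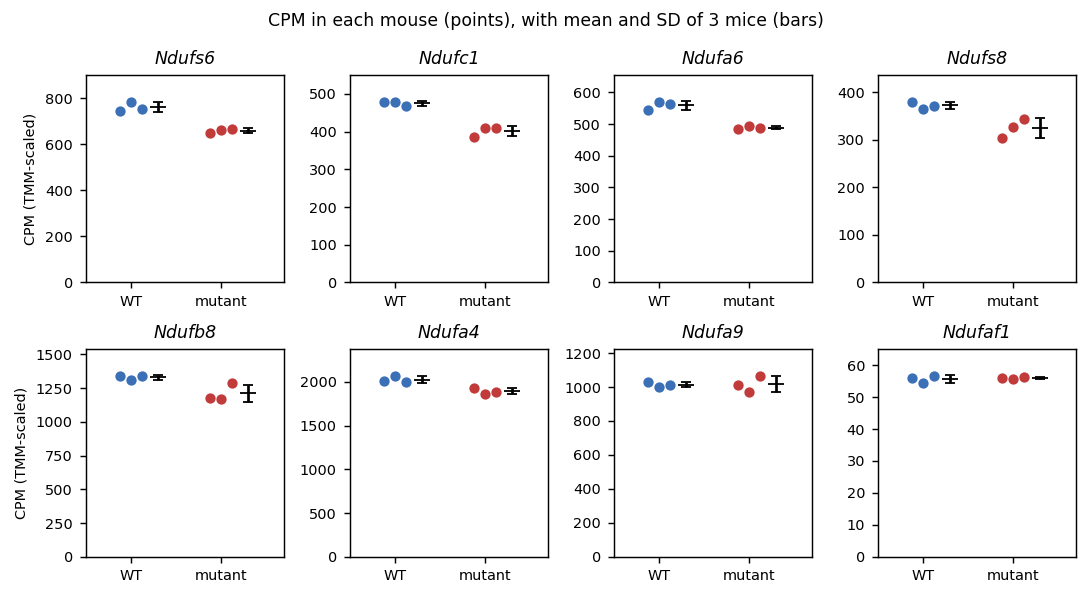
CPM with TMM scaling (linear axis from 0) in each of the 3 WT and 3 mutant mice for 8 complex I genes, with the mean and standard deviation of each genotype beside the points. *Ndufs6*, *Ndufc1* and *Ndufa6*, called lower, are apart by genotype, as are the uncalled *Ndufs8*, *Ndufb8* and *Ndufa4*, while *Ndufa9* and *Ndufaf1* overlap.

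The promoters of the 3 called genes and of *Ndufa9*, the subunit gene with a log2 fold change nearest to 0, are shown because they bear on how these genes are known to be controlled. Nuclear respiratory factor 1, oestrogen-related receptors, ETS factors such as GABP, and YY1 are textbook regulators of nuclear genes for mitochondria. Each window runs from 250 bases before to 50 bases after the transcription start in RefSeq on GRCm38.p6, is given 5′ to 3′ on the strand of the gene, and has the NRF1 letters CGCANGCG and the YY1 letters AANATGGC, on either strand, in capitals. The windows are chr15:82354242-82354541 for *Ndufa6*, chr3:51408906-51409205 for *Ndufc1*, chr13:73328433-73328732 for *Ndufs6* and chr6:126849095-126849394 for *Ndufa9*, each on the minus strand.
Ndufa6: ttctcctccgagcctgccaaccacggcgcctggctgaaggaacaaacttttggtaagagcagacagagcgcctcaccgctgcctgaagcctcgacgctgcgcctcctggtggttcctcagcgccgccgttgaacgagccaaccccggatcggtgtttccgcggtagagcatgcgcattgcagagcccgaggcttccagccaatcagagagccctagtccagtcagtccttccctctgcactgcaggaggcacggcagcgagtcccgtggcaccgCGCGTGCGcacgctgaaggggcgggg
Ndufc1: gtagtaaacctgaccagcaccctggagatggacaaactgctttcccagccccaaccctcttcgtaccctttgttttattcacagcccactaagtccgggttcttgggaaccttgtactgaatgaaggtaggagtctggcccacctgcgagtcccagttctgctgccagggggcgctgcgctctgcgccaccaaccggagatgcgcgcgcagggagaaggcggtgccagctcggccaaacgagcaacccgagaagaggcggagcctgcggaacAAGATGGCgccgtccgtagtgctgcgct
Ndufs6: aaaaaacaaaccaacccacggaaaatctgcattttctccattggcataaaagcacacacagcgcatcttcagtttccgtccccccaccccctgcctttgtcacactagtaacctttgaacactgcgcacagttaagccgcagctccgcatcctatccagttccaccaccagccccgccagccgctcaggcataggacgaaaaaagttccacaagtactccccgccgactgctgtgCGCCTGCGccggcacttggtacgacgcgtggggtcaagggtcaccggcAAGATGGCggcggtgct
Ndufa9: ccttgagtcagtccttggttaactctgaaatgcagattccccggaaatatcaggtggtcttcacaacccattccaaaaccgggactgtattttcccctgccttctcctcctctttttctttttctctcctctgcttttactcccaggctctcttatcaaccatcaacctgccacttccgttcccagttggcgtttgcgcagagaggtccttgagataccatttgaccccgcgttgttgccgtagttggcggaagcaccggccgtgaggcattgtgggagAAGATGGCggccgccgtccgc
*Ndufs6* holds both motifs, *Ndufa6* that of NRF1, and *Ndufc1* and *Ndufa9* that of YY1, so neither motif separates the called genes from *Ndufa9*. In *Ndufc1*, *Ndufs6* and *Ndufa9* the YY1 letters lie downstream of the start site and contain an ATG.

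Of the 41 genes, 37 had such a window, 39 windows in all. *Ndufb9* and *Ndufs1* are among the 4 without one. The NRF1 letters were present in 14 of the 39 windows, 35.9%, against 16.3% of the 13170 windows of tested genes. The YY1 letters were present in 13, 33.3% against 8.0%, and in 7 of these windows they began at or after the start site, 17.9% against 3.89%. The ETS letters CCGGAAG were in 5 windows, 12.8% against 16.6%, and the receptor element AAGGTCA was in 3, 7.69% against 3.20%. No 2 of the motifs share letters at the same place in the printed windows. A match is a description of the letters and not evidence of binding.

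Among the 7 nuclear genes of the catalytic core, 0 were called by edgeR, with a median log2 fold change of -0.06. With so few genes, 0 calls is near the shares over all genes, 1.84% lower and 2.80% higher. *Ndufs8* and *Ndufs7* encode iron-sulfur subunits near the ubiquinone site. *Ndufs8* was at 380, 366 and 371 CPM in WT hearts and 303, 327 and 345 CPM in mutant hearts (-0.20 ± 0.06 on the log2 scale, edgeR adjusted p = 0.146). *Ndufs7* was at 919, 872 and 844 CPM in WT hearts and 720, 789 and 812 CPM in mutant hearts (log2 fold change -0.18, adjusted p = 0.185 from edgeR). In both genes the groups did not overlap, and in both the mutant values were spread more widely than the WT values. *Ndufs1* and *Ndufs3* had log2 fold changes of -0.06 each. *Ndufv1* and *Ndufv2* carry the site at which NADH is oxidised. *Ndufv1* had a log2 fold change of 0.02, with a 95% interval from -0.12 to 0.15, and *Ndufv2* one of -0.08, from -0.20 to 0.05.

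The symbols *Ndufs* and *Ndufv* also cover 4 accessory subunits. Besides *Ndufs6*, *Ndufs4*, whose product helps to hold the NADH-oxidising module on the matrix arm, was at 482, 513 and 497 CPM in WT hearts and 459, 428 and 479 CPM in mutant hearts. The values of *Ndufs4* did not overlap, with a log2 fold change of -0.13 (adjusted p = 0.334 from edgeR). *Ndufv3* had a log2 fold change of -0.17 with overlap, and *Ndufs5* one of -0.10 without. *Ndufs5* is uncertain, since its deposited exonic length is 74 bases against 860 in the GENCODE annotation, and a pseudogene of it is listed under the clone name *BC002163* at 171 to 191 CPM. Over all 11 *Ndufs* and *Ndufv* genes, 10 lay below 0 and the median was -0.10. Of the 11, 5 were lower without overlap and 1 was called lower, against 10.5% and 1.84% of all genes.

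The accessory subunits of the matrix arm, 9 genes, had a median log2 fold change of -0.17. Of them 2 were called lower, *Ndufs6* and *Ndufa6*, and 5 were lower without overlap, against 1.84% and 10.5% of all genes. *Ndufa2*, a thioredoxin-fold subunit, was at 432, 444 and 454 CPM in WT hearts and 385, 391 and 400 CPM in mutant hearts, apart by genotype in every mouse. Its log2 fold change was -0.18 ± 0.05 (edgeR adjusted p = 0.130). *Ndufa5* was at -0.17 with overlap, *Ndufa12* at -0.11 with overlap, and *Ndufa7* at -0.06 without. *Ndufa9*, a subunit with a bound nucleotide at the junction of the arms, was at 1031, 1001 and 1012 CPM in WT hearts and 1010, 973 and 1065 CPM in mutant hearts. The log2 fold change of *Ndufa9* was 0.00, with a 95% interval from -0.12 to 0.12.

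In the membrane arm, 19 accessory genes had a median log2 fold change of -0.10. Of them 1 was called lower, *Ndufc1*, and 10 were lower without overlap, against 1.84% and 10.5% of all genes. *Ndufb4* showed tight groups, with 80.3, 80.1 and 79.6 CPM in WT hearts and 69.0, 70.1 and 70.0 CPM in mutant hearts (-0.20 ± 0.06 on the log2 scale, edgeR adjusted p = 0.129). Close copies of *Ndufb4* exist in the mouse genome and may share its reads. *Ndufb9*, like *Ndufa6* a LYR protein, was at 1059, 1094 and 1085 CPM in WT hearts and 921, 953 and 1018 CPM in mutant hearts (log2 fold change -0.16, adjusted p = 0.182 from edgeR). *Ndufb8* is a gene that was also followed by qPCR in soleus muscle. In the heart it was at 1340, 1309 and 1340 CPM in WT hearts and 1179, 1171 and 1285 CPM in mutant hearts. The 3 mutant values of *Ndufb8* were below the WT values, 1 of them only just, and its log2 fold change was -0.13 (adjusted p = 0.265 from edgeR). *Ndufa3* had the lowest log2 fold change of the 41 genes, -0.25, but also the largest standard error, 0.09, and mutant replicate 3, at 415 CPM, lay above WT replicate 1, at 414 CPM. The 10 other membrane-arm genes below 0 ran from -0.20 for *Ndufa1* to -0.03 for *Ndufb6*, 5 of them without overlap. *Ndufab1*, the acyl carrier protein found in both arms, had a log2 fold change of -0.19 with overlap.

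Not every membrane-arm gene was lower. *Ndufa11*, a transmembrane subunit, was at 233, 237 and 242 CPM in WT hearts and 225, 224 and 250 CPM in mutant hearts. Its log2 fold change was -0.03, with a 95% interval from -0.16 to 0.11. *Ndufb3* had a log2 fold change of 0.06 (from -0.07 to 0.20) and *Ndufa10*, a subunit related to nucleoside kinases, 0.06 (from -0.08 to 0.19), both with overlap. *Ndufa4*, named for complex I but now placed in complex IV, was at 2013, 2069 and 1999 CPM in WT hearts and 1930, 1863 and 1881 CPM in mutant hearts. The groups of *Ndufa4* did not overlap, and its log2 fold change was -0.10 (adjusted p = 0.350 from edgeR), the median of the 41 genes.

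The 4 assembly factors named *Ndufaf* were at about the same level in both genotypes. *Ndufaf1*, which acts on the membrane arm, was at 55.9, 54.4 and 56.6 CPM in WT hearts and 56.1, 55.7 and 56.3 CPM in mutant hearts (log2 fold change 0.01, 95% interval from -0.13 to 0.15). *Ndufaf2*, a relative of *Ndufa12*, was at 35.3, 33.2 and 35.7 CPM in WT hearts and 34.2, 33.4 and 35.4 CPM in mutant hearts (-0.02 on the log2 scale, from -0.17 to 0.14). *Ndufaf3* and *Ndufaf4* encode partners in the assembly of the matrix arm. *Ndufaf3* was at 27.1, 28.6 and 31.3 CPM in WT hearts and 27.6, 29.7 and 30.3 CPM in mutant hearts (0.01 on the log2 scale, from -0.17 to 0.20). *Ndufaf4* was at 61.2, 67.7 and 66.9 CPM in WT hearts and 61.9, 73.4 and 70.4 CPM in mutant hearts (0.07 on the log2 scale, from -0.11 to 0.25). All 4 overlapped between genotypes and 0 were called by edgeR, 0 of them also at an unadjusted p under 0.05. The intervals are wide enough to hold a difference of the size seen in the subunits, so a difference between assembly factors and subunits is not shown. *Ndufaf2* shares 1955 exonic bases with a gene on the opposite strand.

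A further 4 assembly factors now named *Ndufaf* are listed under clone names and were added after the values had been seen. Of these 0 were called by edgeR. *Ndufaf8*, listed as *1810043H04Rik*, was at 57.5, 59.3 and 54.6 CPM in WT hearts and 44.5, 48.6 and 50.0 CPM in mutant hearts, with no overlap (log2 fold change -0.26, adjusted p = 0.103 from edgeR). *Ndufaf5*, *Ndufaf6* and *Ndufaf7*, listed as *2310003L22Rik*, *2310030N02Rik* and *2410091C18Rik*, had log2 fold changes of -0.05, 0.14 and -0.04, each with overlap. Of 12 further factors with other names, 0 were called by edgeR and the median was 0.05. In lists of 4 and 12 genes, 0 calls is near the shares over all genes, 1.84% lower and 2.80% higher. The smallest p among the 12 were those of *Atp5sl* (*Dmac2*), with a log2 fold change of 0.19 (adjusted p = 0.210 from edgeR), and *Tmem126b*, with 0.15 (adjusted p = 0.357 from edgeR).

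Summed over the 41 genes, complex I transcripts took 24895, 25361 and 25248 CPM in WT replicates 1, 3 and 4, and 22982, 23146 and 24313 CPM in mutant replicates 1, 2 and 3. The mean was 25168 ± 243 CPM for WT and 23480 ± 725 CPM for mutant mice (SD, n = 3 each), 6.71% lower without overlap. Other tested genes with an exonic length under 1000 bases, 852 in all, were 7.61% lower in summed CPM, also without overlap. *Ndufs* and *Ndufv* genes together were 6.15% lower and *Ndufa*, *Ndufb* and *Ndufc* genes 7.12% lower, both without overlap, while the assembly factors were at 185 ± 5.52 and 188 ± 7.26 CPM (SD, n = 3 mice each) with overlap. The 7 catalytic core genes were 5.04% lower with overlap, the matrix-arm accessory genes 8.34% lower and the membrane-arm accessory genes 7.04% lower, both without. In these samples of whole myocardium, fewer cells of a type and less RNA in each cell cannot be told apart.

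The 3 mutant hearts were not alike. In mutant replicate 1, 34 of the 41 genes lay below all 3 WT values, and in mutant replicate 2, 31 did. In mutant replicate 3 it was 21, with 13 genes inside the WT range and 7 above it. Mutant replicate 3 held the highest of the 3 mutant values for 29 of the 41 genes, and its median deviation from the WT mean was -0.05 on the log2 scale, against -0.13 and -0.11 in mutant replicates 1 and 2.

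**Figure D3:**
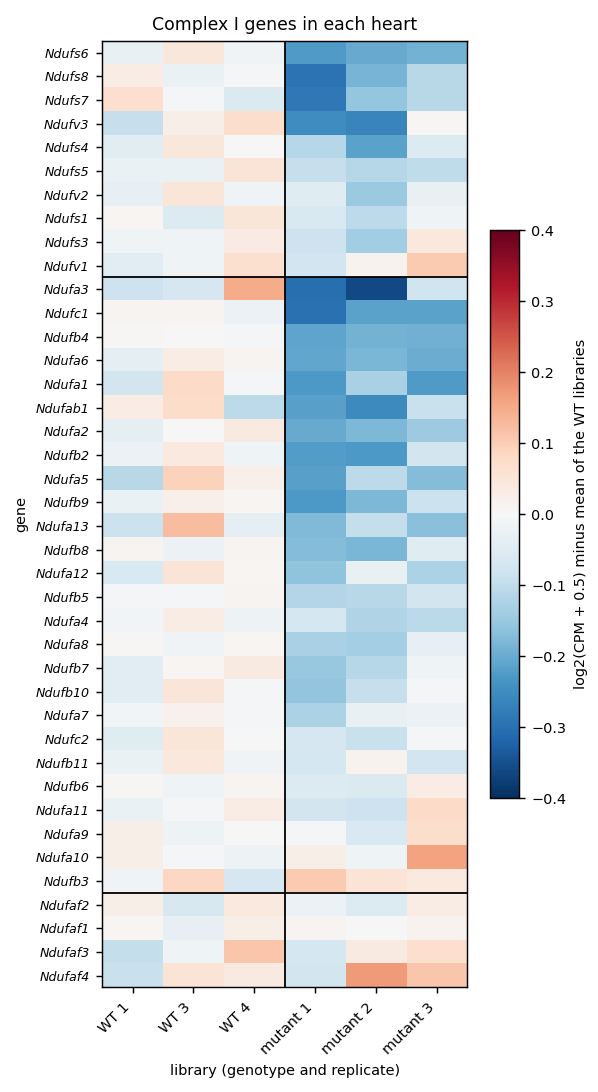
Of the 41 complex I genes, 40 (rows, ordered by log2 fold change within *Ndufs* and *Ndufv*, then *Ndufa*, *Ndufb* and *Ndufc*, then *Ndufaf*) in each of the 6 libraries (columns). Colour is log2(CPM + 0.5) minus the mean of the WT libraries, blue for lower and red for higher. In the first 2 mutant columns 33 and 30 genes are below all WT values, and the mutant replicate 3 column is paler.

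On the scale of RPKM, deposited by the authors and corrected for exonic length, the levels of the genes spread widely. *Ndufa4* was the highest, with a mean over the 6 libraries of 3977 RPKM, followed by *Ndufb9* at 1567 RPKM, *Ndufa3* at 1477 RPKM, *Ndufa5* at 1441 RPKM and *Ndufs6* at 1251 RPKM. Among the subunits the lowest were *Ndufa11*, at 96.1 RPKM, and *Ndufb4*, at 163 RPKM. The assembly factors lay below every subunit, from 18.4 RPKM for *Ndufaf4* to 50.7 RPKM for *Ndufaf2*. Among *Ndufs* and *Ndufv* genes *Ndufs6* was the highest and *Ndufs4*, at 310 RPKM, and *Ndufs8*, at 356 RPKM, the lowest. These levels depend on the exonic lengths used, which for many of the genes are shorter than in GENCODE, 492 against 1381 bases for *Ndufa4*.

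**Figure D4:**
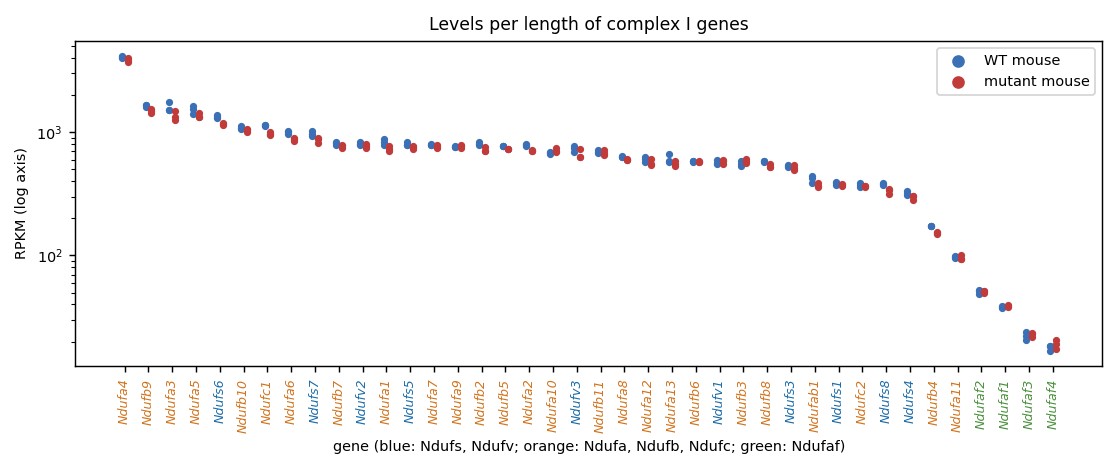
RPKM of 40 complex I genes (log axis) in 3 WT and 3 mutant mice, ordered by the mean over the 6 libraries. *Ndufa4* stands highest at 3977 and the 4 assembly factors lowest, at 18.4 to 50.7, and genotypes differ little beside the range between genes.

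The complex I genes are short, and short genes as a class were lower in the mutant libraries. Of the 41, 28 have an exonic length under 1000 bases, among which 27 lay below 0, 15 were lower without overlap, 3 were called lower by edgeR and the median log2 fold change was -0.13. Of the 852 other tested genes of that length 559 lay below 0, 65.6%, and 172 were lower without overlap, 20.2%, both above the shares over all genes. Their median was -0.07, with 38 called lower and 9 higher, where 1.84% and 2.80% of all genes were called. In summed CPM these 852 genes were 7.61% lower and the 28 complex I genes 8.82% lower, both without overlap. The 13 complex I genes of 1000 bases or more had a median of -0.03, 7 below 0 and 0 called by edgeR, 2 of them at an unadjusted p under 0.05, against a median of 0.00 in the 12062 other genes of that length. Across genes, Spearman's correlation between length and log2 fold change was 0.126 over the 12955 tested genes and 0.476 over the 41, a description only, since all genes come from the same 6 libraries. With counts scaled for the trend over exonic length, 27 of the 41 lay below 0, the median was -0.05 and 0 were called by edgeR. The 3 called genes then had log2 fold changes more than 1.5 times smaller, with adjusted p of 0.220 to 0.271 (edgeR). What part length-dependent recovery of RNA has in the difference was not tested.

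**Figure D5:**
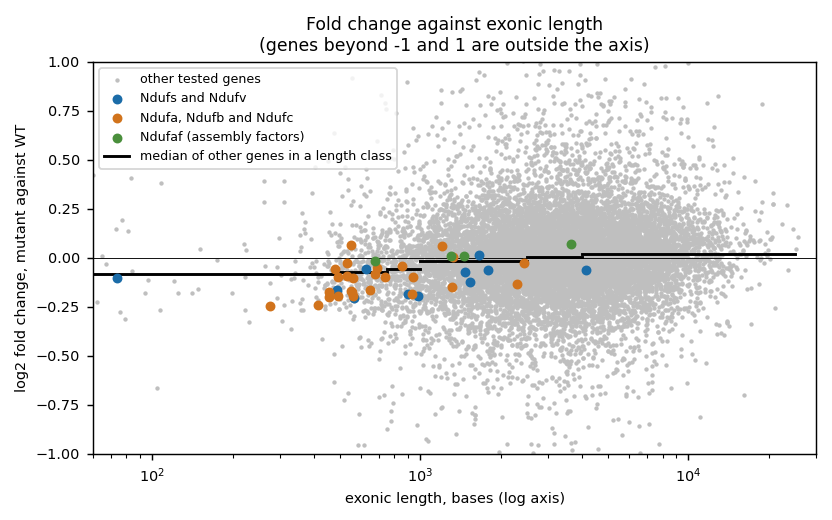
Log2 fold change, mutant against WT, against exonic length in bases (log axis) for the tested genes (grey) and the complex I genes (coloured by symbol group), with black lines at the median of the other genes in each length class. Complex I genes under 1000 bases, with a median of -0.13, lie mostly below the grey median of -0.07, and those of 1000 bases or more have a median of -0.03, with *Ndufa13*, *Ndufb8* and *Ndufs4* lower, at -0.15, -0.13 and -0.13.

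The other respiratory complexes showed differences of similar size. Of 51 genes of complexes II to V, 45 lay below 0, against 50.0% of all genes, with a median of -0.11. By edgeR 6 were called lower and 0 higher, against 1.84% and 2.80% of all genes. Their summed CPM was 7.95% lower without overlap. In complex II, succinate dehydrogenase and its assembly factors, 4 of 8 genes lay below 0 and *Sdhc*, a membrane anchor, was called lower (log2 fold change -0.25, adjusted p = 0.0639 from edgeR). In complex III all 9 genes lay below 0, and *Uqcrq* (-0.26 on the log2 scale, adjusted p = 0.0543 from edgeR) and *Uqcr10* (-0.24, adjusted p = 0.0681), both small subunits, were called lower. In complex IV 15 of 16 lay below 0, and *Cox4i2*, an isoform induced by low oxygen, and *Cox8b*, the muscle isoform of a small subunit, were called lower, by -0.43 (adjusted p = 0.0904 from edgeR) and -0.21 (adjusted p = 0.0925). In complex V, ATP synthase, 17 of 18 lay below 0 and *Atp5g1*, which encodes subunit c of the rotor, was called lower (-0.29, adjusted p = 0.0839 from edgeR). *Atp5g1*, *Cox4i2* and *Uqcrq* are also named in the paper's lists of lower genes, on the strength of these same libraries. Those lists also name *Cox6b2*, not called here, and *Ndufa4l2*. They do not name *Sdhc*, *Uqcr10*, *Cox8b*, *Ndufc1*, *Ndufs6* or *Ndufa6*. Such lists give only genes of enriched functional terms, so absence from them does not show how the paper's test placed a gene. *Ndufa4l2*, left out of the group by rule, was at 19.2, 23.5 and 23.2 CPM in WT hearts and 15.0, 16.8 and 15.3 CPM in mutant hearts, a log2 fold change of -0.49 (adjusted p = 0.0454 from edgeR).

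Of 16 regulators of mitochondrial gene expression tested, 0 were called by edgeR, where 1.84% of all genes were called lower and 2.80% higher. With so few genes, 0 calls is near those shares. An unadjusted p under 0.05 was reached by 0 of the 16 in either direction. At that limit 1017 of the 12955 genes tested (7.85%) were lower and 1127 higher. *Ppara*, a receptor for fatty acids, had a log2 fold change of -0.19 (adjusted p = 0.341 from edgeR) and *Esrra*, an oestrogen-related receptor, one of -0.11 (adjusted p = 0.399 from edgeR). These were the 2 smallest p of the list. *Esrra* was at 177, 174 and 187 CPM in WT hearts and 165, 167 and 170 CPM in mutant hearts, without overlap, and *Ppara* overlapped. *Ppargc1a*, a coactivator of mitochondrial biogenesis, had a log2 fold change of 0.24 with a 95% interval from -0.12 to 0.60.

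The libraries held 40693854 to 57580110 tags, and the complex I genes plotted had 1162 to 110616 tags in a library. Between mice of the same genotype the chi-square per degree of freedom, a mean over genes, was 14.8 to 30.7. Counting noise alone gives about 1, and no library repeated another. This mean does not hold for each gene, and counting error is not small beside the spread between mice for all. *Ndufb4* had a standard deviation of only 0.330 CPM in WT and 0.633 CPM in mutant mice. Markers of cardiomyocytes, 8 of 8 detected, ranged in sum from 103598 to 107823 CPM (WT) and from 101448 to 113932 CPM (mutant), the level of heart muscle, and *Actc1* was called higher. Among these 8 markers 5 lay below 0 and 3 above, with a median log2 fold change of -0.05. *Actc1* and *Myh6* were higher without overlap, and *Atp2a2* was lower without overlap. Markers of mural cells of vessels, 4 of 4 detected, ranged in sum from 453 to 511 CPM (WT) and from 342 to 424 CPM (mutant) without overlap, with *Rgs5* and *Pdgfrb* called lower. *Cspg4* and *Myh11*, the rest of this list, had log2 fold changes of -0.01 and -0.05, both with overlap. Endothelial markers (5 of 5) ranged from 892 to 1016 CPM (WT) and from 815 to 920 CPM (mutant), with *Tie1* called lower. The sums of fibroblast (7 of 7), macrophage (5 of 5), adipocyte (3 of 4) and blood (3 of 5) markers overlapped between genotypes. Single fibroblast markers did not all overlap. Of these 7, 5 lay above 0 and 2 below, with a median log2 fold change of 0.18. At an unadjusted p under 0.05 from edgeR 3 were higher and 0 lower. *Col1a1*, called higher, and *Col3a1* were higher without overlap. Of the listed markers 0 were at 0 in every library. Of 5 atrial markers 4 were tested and 0 called. *Nppa*, which failing ventricles also express, was at 119, 671 and 144 CPM in WT hearts and 877, 926 and 639 CPM in mutant hearts. The other 3, *Myl4*, *Myl7* and *Sln*, summed to 112, 421 and 130 CPM in WT replicates 1, 3 and 4 and to 50.4, 97.8 and 247 CPM in mutant replicates 1, 2 and 3, with WT replicate 3 the highest. The part of these markers in the lower complex I values was not tested, and the values without WT replicate 3 are those given for the calls.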

How the data were processed

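Per the labels and the study's methods, total RNA of mouse hearts was made into poly-A libraries, sequenced as paired ends, mapped to GRCm38/mm10 with OLego and quantified with Quantas. The kit differs between these sources (NEBNext Ultra II Directional or TruSeq). The authors deposited, for each library and each of 13003 genes, an estimated count of tags, an exonic length and an RPKM value. Estimated counts with a decimal part (8.45% to 13.8% of genes in a library) were rounded. The RPKM deposited by the authors were used for levels and not for tests. Tag counts were TMM-scaled and tested with edgeR 4.0.16 in R 4.3.3 (glmQLFit and glmQLFTest, genotype as the only term, two-sided), over the 12955 genes that reached 1 CPM in 3 or more of 6 libraries. Fold changes are mutant against WT with 95% intervals from the same fit. The tests were tested on simulated data. CPM are given with the standard deviation over 3 mice. The labels say that mice were independent replicates. Alternatives were DESeq2 1.42.0, the exact test, other scalings and filters, a replicate block, leaving out each library, and scaling by exonic length (lowess span 0.3), the last chosen after seeing the data. Gene positions, and promoter windows matched by gene identifier, came from RefSeq on GRCm38.p6, and exon overlaps from GENCODE vM21.

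The genes described, set by symbol, the lists of other genes and the rule for named genes were chosen with earlier results of these data known. The rule took every called gene, the 4 of smallest p and the 2 of highest and 2 of lowest mean RPKM among *Ndufs* and *Ndufv*, among *Ndufa*, *Ndufb* and *Ndufc*, and among *Ndufaf* genes, *Ndufb8*, *Ndufa4*, and in each list of other genes the called genes or the 2 of smallest p. Other genes are named after their values were seen. Since libraries are few, p-values reflect 3 mice against 3. Splicing and mitochondrially encoded genes were not analysed here. Of the 41 genes, 1 counts in the sums and is not reported here on its own.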

Additional observations from a re-analysis of the deposited data

How the results depend on the processing

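The median log2 fold change stayed below 0 for *Ndufs* and *Ndufv* genes (-0.1044) and for *Ndufa*, *Ndufb* and *Ndufc* genes (-0.1026) under the 14 alternatives that change a fold change, and scaling by exonic length, which was chosen after seeing the data, moved the second to -0.0444. The median of the assembly factors (0.0097) ran from -0.0055 to 0.0446. Calls depended on the settings. Against 3 complex I genes called lower by edgeR's quasi-likelihood test, DESeq2 called 7, the exact test 1, scaling by exonic length 0, an adjusted p under 0.05 0, and the fits without 1 library 0 to 2, while 0 were called higher under any of the 15 alternatives. Over all genes, against 363 higher and 238 lower, DESeq2 called 580 and 448, an adjusted p under 0.05 left 210 and 94, and leaving out 1 library left 108 to 281 higher and 33 to 208 lower. Correlations of deviations were 0.0072 and -0.0492 between mice of the same number, and from -0.091 to 0.1142 between mice of different numbers. With 3 mice of each genotype these values cannot show whether the numbers pair the mice, and the labels name no litter or day. With the replicate number as a block, 1 complex I gene, *Ndufc1*, was called lower (edgeR adjusted p of 0.196 for *Ndufs6* and 0.251 for *Ndufa6*) and 457 genes in all were lower, with 52.7% of calls higher against 60.4% without it. Library totals without TMM moved the median of all genes by 0.01 on the log2 scale. Log2 fold changes near 0 changed sign. *Ndufa11* was 0.0161 with the block, and *Ndufaf2* 0.0228 with the block and 0.0484 with length scaling. Over the fits without 1 library *Ndufaf1* ran from -0.0094 to 0.0209, *Ndufaf2* from -0.0503 to 0.0027 and *Ndufaf3* from -0.0375 to 0.0683. The cause of these changes was not tested.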
